A study of Mus musculus with 8 samples.

Results

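The response of mouse peritoneal macrophages to histidine-rich glycoprotein (HRG) was compared between 6 h and 24 h of exposure. The quantity measured was the difference between HRG and untreated (basal) cells at 24 h minus the same difference at 6 h, called the interaction here. It used all 8 samples of the study and 19938 genes, each represented by an array row paired with a single gene symbol and, where a gene had several such rows, by its brightest row on average. The 4 groups were basal cells at 6 h, cells with recombinant HRG at 1 µg/ml for 6 h, basal cells at 24 h and cells with HRG at the same dose for 24 h, with 2 Affymetrix arrays each. All groups shared their origin: macrophages were lavaged from the peritoneum of wild-type C57/Bl6 mice, those of 10 animals were pooled, and the pool was held overnight in RPMI medium with fetal calf serum before the treatment began. The basal cells aged in culture alongside the treated ones, and the groups used here hold no sample from the moment at which HRG was added. Because 1 pool supplied every sample, the p-values reflect the spread between these arrays alone, which can be purely technical.

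HRG is a liver-made protein of blood plasma with many binding partners, among them heparan sulphate, metal ions and components of dying cells. A treatment can act early and fade, appear late, or change its sign, and in cultured macrophages each of these plays out against changes that culture itself brings. Pathways followed below include the NRF2 response, in which the transcription factor NRF2 binds antioxidant response elements and raises detoxifying and glutathione-making enzymes. They also include the integrated stress response, in which ATF4 and CHOP raise genes for amino acid supply and growth arrest, and complement C1q, an opsonin made largely by macrophages.

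Levels are deposited log2 values made by RMA, a method that background-corrects, normalizes and summarises the probes of a row, and differences are log2 differences with the standard error of a limma fit over all 8 arrays (n = 2 arrays per group). A gene was called at a Benjamini-Hochberg adjusted p under 0.05 over the 19938 genes, and rose and fell are used for called genes only. The replicate arrays of a group correlated at r = 0.996 to 0.998 across rows, and the first principal component, with 44.5% of the variance, separated 24 h from 6 h arrays. The 11 measured genes on a list of defining macrophage markers had a mean level of 11.9 to 12.3 in every array, and 10 of them lay above the median level of all genes (7.48). The exception was Cd163, a haemoglobin scavenger receptor, at 6.09 to 6.52. None of these 11 was called by the limma interaction, with or without a trended, robust prior, and 1 had an unadjusted p under 0.05.

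The HRG effect differed between the 2 times in 294 of 19938 genes (1.47%). It was higher at 24 h than at 6 h in 204 genes (1.02%) and lower in 90 (0.451%), and the difference was at least 2-fold in 73 and 38 of them. With no adjustment, 2197 genes had p under 0.05. For comparison, 249 genes (1.25%) were called at 6 h, where 86 rose (0.431%) and 163 fell (0.818%), and 694 (3.48%) at 24 h, where 485 rose (2.43%) and 209 fell (1.05%). The genes called by the interaction made up 22.5% of the calls at 6 h and 30.7% of those at 24 h. With each array's lower quartile added as a covariate, 58.6% rather than 69.4% of the interaction calls were higher at 24 h. The count rested on single arrays: without HRG 24 h replicate 1 the calls were 28 higher and 28 lower, without HRG 6 h replicate 2 they were 50 and 38, without HRG 6 h replicate 1 they were 79 and 41, without basal 24 h replicate 2 they were 86 and 42, without HRG 24 h replicate 2 they were 107 and 34, and without basal 6 h replicate 1 they were 104 and 92. Without basal 24 h replicate 1 they grew to 265 and 139. The 249 calls at 6 h became 21 without HRG 6 h replicate 2, 62 without basal 6 h replicate 1, 73 without HRG 6 h replicate 1 and 130 without either HRG 24 h array, and the 694 at 24 h became 182 without HRG 24 h replicate 1, 298 without basal 24 h replicate 2 and 404 without HRG 24 h replicate 2.

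By the calls at each time, most of the 294 genes were delayed, meaning called at 24 h and not at 6 h. There were 204 delayed genes, 132 with a higher and 72 with a lower interaction. Another 47 were transient, called at 6 h and not at 24 h, of which 36 had been lowered by HRG at 6 h and 11 raised. Only 7 were reversing, called at both times with opposite signs, 2 were growing, called at both times with the same sign and larger at 24 h, and none was shrinking. The remaining 34 were called at neither time, and their 2 estimates had opposite signs in all 34. A missed call does not show that an effect was absent, so a stricter form was also counted, in which the 95% interval of the effect at the uncalled time lay within 1.5-fold in either direction. That form held for 145 of the 204 delayed and 38 of the 47 transient genes. The classes depend on the rule for a call: with the times called by unadjusted p under 0.05, 124 genes were delayed and 120 reversing. The 2 estimates had opposite signs in 239 of the 294 genes (81.3%) against 49.9% of all genes, and selecting genes by the difference of 2 effects favours opposite signs by itself. Delayed, transient and neither-time genes numbered 43, 4 and 6 without HRG 24 h replicate 1, 79, 2 and 7 without HRG 6 h replicate 2, 80, 23 and 14 without basal 24 h replicate 2, 91, 18 and 9 without HRG 6 h replicate 1 and 114, 10 and 15 without HRG 24 h replicate 2. They numbered 156, 9 and 28 without basal 6 h replicate 1, 206, 66 and 56 without basal 6 h replicate 2 and 281, 43 and 53 without basal 24 h replicate 1.

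**Figure D1:**
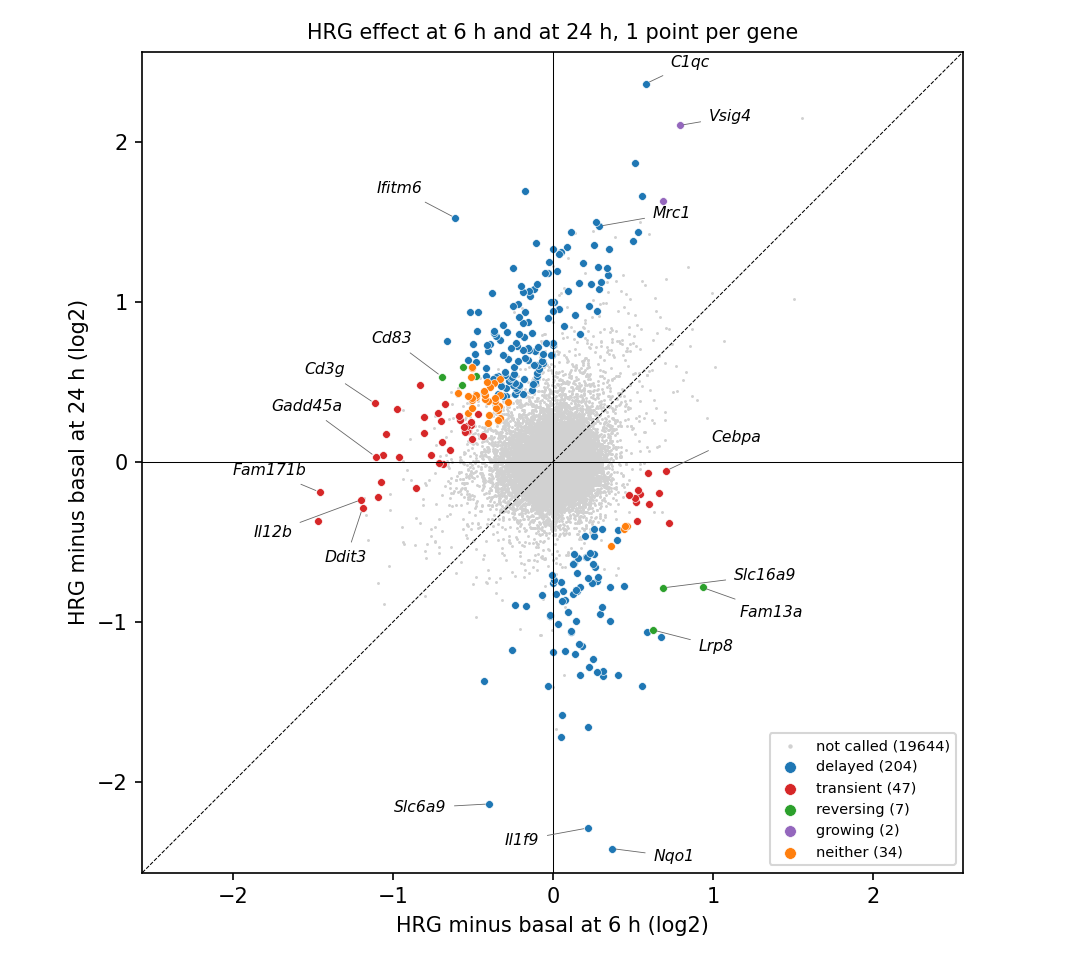
HRG minus basal at 6 h (x axis, log2) against HRG minus basal at 24 h (y axis, log2), 1 point per gene, with the 294 genes called by the interaction coloured by pattern and the dashed line marking equal effects. Delayed genes (204) stretch along the y axis, transient genes (47) along the x axis, and the 7 reversing genes lie in the upper left and lower right.

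Promoter sequences of genes from the 2 pathways are shown because delayed falls held many NRF2 targets and transient falls held stress-response genes. RefSeq promoters (GRCm38.p6) were found by symbol for 15614 of the 19938 genes, and the 250 bases before each start were searched on both strands. The core of the antioxidant response element, TGACNNNGC, was present in 12.5% of all promoters. Of the 63 delayed lower genes with a promoter, 13 had it (20.6%). It was found in 7 of 27 NRF2 list members with a promoter (25.9%) and in 5 of the 14 called ones (35.7%). It was also present in 18.1% of the 232 called genes with a promoter, in 19.2% of the transient higher, 15.8% of the delayed higher and 2 of 10 transient lower ones, and in 6 of 30 members of the ATF4-CHOP list. No test was made between these shares. In the following windows, written on the strand of the gene, capitals mark the match, and a match read from the opposite strand begins with GC and ends with TCA.

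Pir (chrX:164269192-164269250, plus strand): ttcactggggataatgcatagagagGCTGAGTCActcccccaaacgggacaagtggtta
Txnrd1 (chr10:82859089-82859147, plus strand): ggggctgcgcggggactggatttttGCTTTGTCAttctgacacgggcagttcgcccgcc
Gclm (chr3:122245398-122245456, plus strand): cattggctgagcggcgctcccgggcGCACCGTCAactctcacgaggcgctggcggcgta
Gsta3 (chr1:21240439-21240497, plus strand): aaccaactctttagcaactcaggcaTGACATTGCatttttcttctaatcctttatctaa
Abcc4 (chr14:118706220-118706269, minus strand): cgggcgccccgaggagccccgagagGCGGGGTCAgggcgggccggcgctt
Procr (chr2:155751038-155751096, plus strand): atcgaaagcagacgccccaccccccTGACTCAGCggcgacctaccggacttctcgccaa

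Pir, Txnrd1, Gclm, Gsta3 and Abcc4 are members of the NRF2 list, and Procr is a delayed lower gene outside it. The C/EBP-ATF response element, TGATGNAA, was present in 3.14% of all promoters and in 4.31% of the called genes with a promoter. It was found in 4 of the 26 transient higher genes with a promoter (15.4%) and 4 of 101 delayed higher ones (3.96%). In the ATF4-CHOP list 7 of 30 members had it (23.3%), and of the 4 called members only 1, Chac1. The 4 transient genes and Asns, which encodes asparagine synthetase and was not called by the interaction, had the following windows, where a match from the opposite strand ends with ATCA.

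Chac1 (chr2:119351024-119351081, plus strand): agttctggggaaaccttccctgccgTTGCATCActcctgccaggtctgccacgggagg
Jdp2 (chr12:85599358-85599415, plus strand): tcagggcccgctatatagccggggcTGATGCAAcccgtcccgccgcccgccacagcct
Il12b (chr11:44399979-44400036, plus strand): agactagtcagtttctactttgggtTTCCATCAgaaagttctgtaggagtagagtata
Aqp9 (chr9:71162665-71162722, minus strand): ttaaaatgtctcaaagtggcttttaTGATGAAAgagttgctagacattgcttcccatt
Asns (chr6:7693210-7693257, minus strand): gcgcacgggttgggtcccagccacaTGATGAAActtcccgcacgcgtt

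Both motifs begin with TGA, and neither contains the other. The E-box CACGTG, searched in the same way, was present in 8.11% of all promoters and in 6.47% of the 232 called genes with a promoter. A match describes letters in the window and is not a binding site shown by these data, and a window with no match says only that the letters are not in it.

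Delayed falls included many enzymes of detoxification and glutathione synthesis. Of 32 measured NRF2 targets, 16 were lower at 24 h by the interaction and none was higher, with a median of -0.69 against -0.03 over all genes. Among all genes 0.451% were lower and 1.02% higher by the interaction. At 6 h none of the 32 was called by limma (5 had an unadjusted p under 0.05), and their median HRG effect was 0.09. At 24 h 20 fell (against 1.05% of all genes) and none rose (against 2.43%), with a median of -0.62. The list was chosen with earlier results of these data known, so the count describes the list and is no separate evidence.

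Nqo1, a quinone reductase, had the largest interaction of all genes in size. Its levels were 9.38 and 8.99 in basal and 9.51 and 9.59 in HRG arrays at 6 h, and 10.93 and 11.43 in basal and 8.70 and 8.82 in HRG arrays at 24 h. The 24 h basal arrays stood far above all others, and the HRG arrays at 24 h lay below every other array. The HRG effect went from 0.37 ± 0.16 at 6 h (95% interval 0.02 to 0.72) to -2.41 ± 0.16 at 24 h, an interaction of -2.78 ± 0.23 (limma adjusted p = 4.3e-04). Pir, an iron-binding nuclear protein called pirin, had levels of 8.20 and 8.16 in basal and 8.20 and 8.27 in HRG arrays at 6 h, and 9.19 and 9.58 in basal and 7.61 and 7.73 in HRG arrays at 24 h. The 6 h arrays lay within a narrow band in both groups, and at 24 h basal and HRG arrays lay apart on opposite sides of it. Its interaction was -1.77 ± 0.18 (limma adjusted p = 0.0011), made of 0.05 ± 0.12 at 6 h and -1.72 ± 0.12 at 24 h.

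The genes for making glutathione moved in the same direction. Gclc, the catalytic subunit of glutamate-cysteine ligase, had levels of 11.35 and 11.21 in basal and 11.43 and 11.41 in HRG arrays at 6 h, and 11.88 and 12.16 in basal and 10.84 and 10.81 in HRG arrays at 24 h. The groups did not overlap at 24 h, and the interaction was -1.34 ± 0.16 (limma adjusted p = 0.0035). Gclm, the modifier subunit of that ligase, had an interaction of -0.95 ± 0.14 and Gss, glutathione synthetase, which was not on the list, one of -1.33 ± 0.20. Srxn1, the sulfiredoxin that repairs oxidised peroxiredoxins, had levels of 11.31 and 11.30 in basal and 11.56 and 11.56 in HRG arrays at 6 h, and 12.20 and 12.39 in basal and 11.01 and 11.12 in HRG arrays at 24 h. HRG arrays were slightly higher than basal ones at 6 h and clearly lower at 24 h, with an interaction of -1.48 ± 0.14 (limma adjusted p = 8.2e-04). Txnrd1, thioredoxin reductase, had an interaction of -1.16 ± 0.16.

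Enzymes that supply NADPH or reduce carbonyls, and export pumps, followed. Me1, the malic enzyme that makes NADPH, had levels of 9.59 and 9.30 in basal and 9.72 and 9.72 in HRG arrays at 6 h, and 10.16 and 10.65 in basal and 9.09 and 9.09 in HRG arrays at 24 h. The HRG arrays were above the basal ones at 6 h and below them at 24 h, and the interaction was -1.58 ± 0.21 (limma adjusted p = 0.0046). The pentose phosphate enzymes Taldo1 and Pgd had interactions of -1.0 ± 0.16 and -0.67 ± 0.13. Ephx1, an epoxide hydrolase, changed by -1.50 ± 0.20, the carbonyl reductase Cbr3 by -1.65 ± 0.26, the aldo-keto reductase Akr1b8 by -1.64 ± 0.24, the glutathione transferase Gsta3 by -0.94 ± 0.15 and the biliverdin reductase Blvrb by -0.89 ± 0.17. For the efflux pump Abcc4 the interaction was -1.65 ± 0.20, and HRG arrays were above basal arrays at 6 h (0.59 ± 0.14, adjusted p = 0.082) and below them at 24 h (-1.06 ± 0.14). Another pump, Abcc1, had -0.71 ± 0.13. Ptgr1, an alkenal-reducing enzyme outside the list, had -1.25 ± 0.18.

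Members that did not pass included Hmox1, haem oxygenase, at -0.20 ± 0.14 (limma adjusted p = 0.69) and Slc7a11, the cystine transporter, at -0.44 ± 0.15 (adjusted p = 0.24). The number of NRF2 targets called was 8 without HRG 24 h replicate 1 and 12 to 19 without each other array, and 2 under a test against a minimum fold of 1.5. By single arrays, the calls of Nqo1, Pir, Gclc, Srxn1, Me1, Abcc4, Ephx1, Txnrd1, Gss and Ptgr1 held without any 1 of the 8. The call of Akr1b8 was lost without HRG 24 h replicate 1 (adjusted p = 0.058), that of Cbr3 without HRG 24 h replicate 1 (adjusted p = 0.076), that of Gclm without HRG 24 h replicate 1 (adjusted p = 0.053) and that of Blvrb without basal 24 h replicate 2, HRG 6 h replicate 1 or HRG 24 h replicates 1 and 2 (adjusted p = 0.072 to 0.13). Those of Taldo1, Gsta3, Abcc1 and Pgd were lost without 4, 3, 5 and 6 of the 8 arrays, respectively.

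By the list medians, the time change behind these values was larger in basal than in HRG arrays. The interaction is also the change from 6 h to 24 h with HRG minus the change without it. Over the NRF2 list the median change with time was 0.62 in basal and -0.12 in HRG arrays. Nqo1 rose by 1.99 ± 0.16 with time in basal arrays and fell by 0.79 in HRG arrays, and Gclc rose by 0.74 ± 0.11 and fell by 0.60. Acss2, an acetyl-CoA synthetase, instead rose by 1.54 ± 0.16 in basal arrays and had -0.20 ± 0.16 in HRG arrays. The basal arrays at 6 h and 24 h enter both the HRG effects and the basal time course, so these are the same values seen from another side.

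Other delayed falls included signalling and transport genes. Il1f9, which encodes the cytokine IL-36 gamma, had levels of 8.43 and 8.11 in basal and 8.55 and 8.44 in HRG arrays at 6 h, and 9.40 and 9.78 in basal and 7.32 and 7.28 in HRG arrays at 24 h. Basal and HRG arrays were close at 6 h and lay far apart at 24 h, where the HRG effect was -2.29 ± 0.14 and the interaction -2.50 ± 0.19 (limma adjusted p = 4.3e-04). Slc6a9, a glycine transporter, had levels of 11.18 and 11.18 in basal and 10.95 and 10.62 in HRG arrays at 6 h, and 11.07 and 11.59 in basal and 9.27 and 9.12 in HRG arrays at 24 h. Its 24 h HRG arrays were the lowest of the 8, and the interaction was -1.74 ± 0.22 (limma adjusted p = 0.0044). Slc6a9 stood on the ATF4-CHOP list too and was the only member of it with a lower interaction. Procr, the endothelial protein C receptor, had -1.62 ± 0.20, Eid3, a member of the EID family of inhibitors, -1.88 ± 0.23, and Ednrb, an endothelin receptor found on large resident peritoneal macrophages, -0.96 ± 0.14. Those 5 calls held without any single array. Treml4, a receptor of the TREM family, had a larger estimate, -1.96 ± 0.34, and its call was lost without HRG 6 h replicates 1 and 2 or HRG 24 h replicates 1 and 2 (adjusted p = 0.05 to 0.075). Unc5b, a netrin receptor, had -1.51 ± 0.30 and lost its call without 5 of the 8 arrays (adjusted p = 0.061 to 0.14). The row of Mir155, which measures a precursor or host transcript and not the mature miRNA, had -0.73 ± 0.15. It was named after its value was seen and lost its call without 7 of the 8 arrays.

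**Figure D2:**
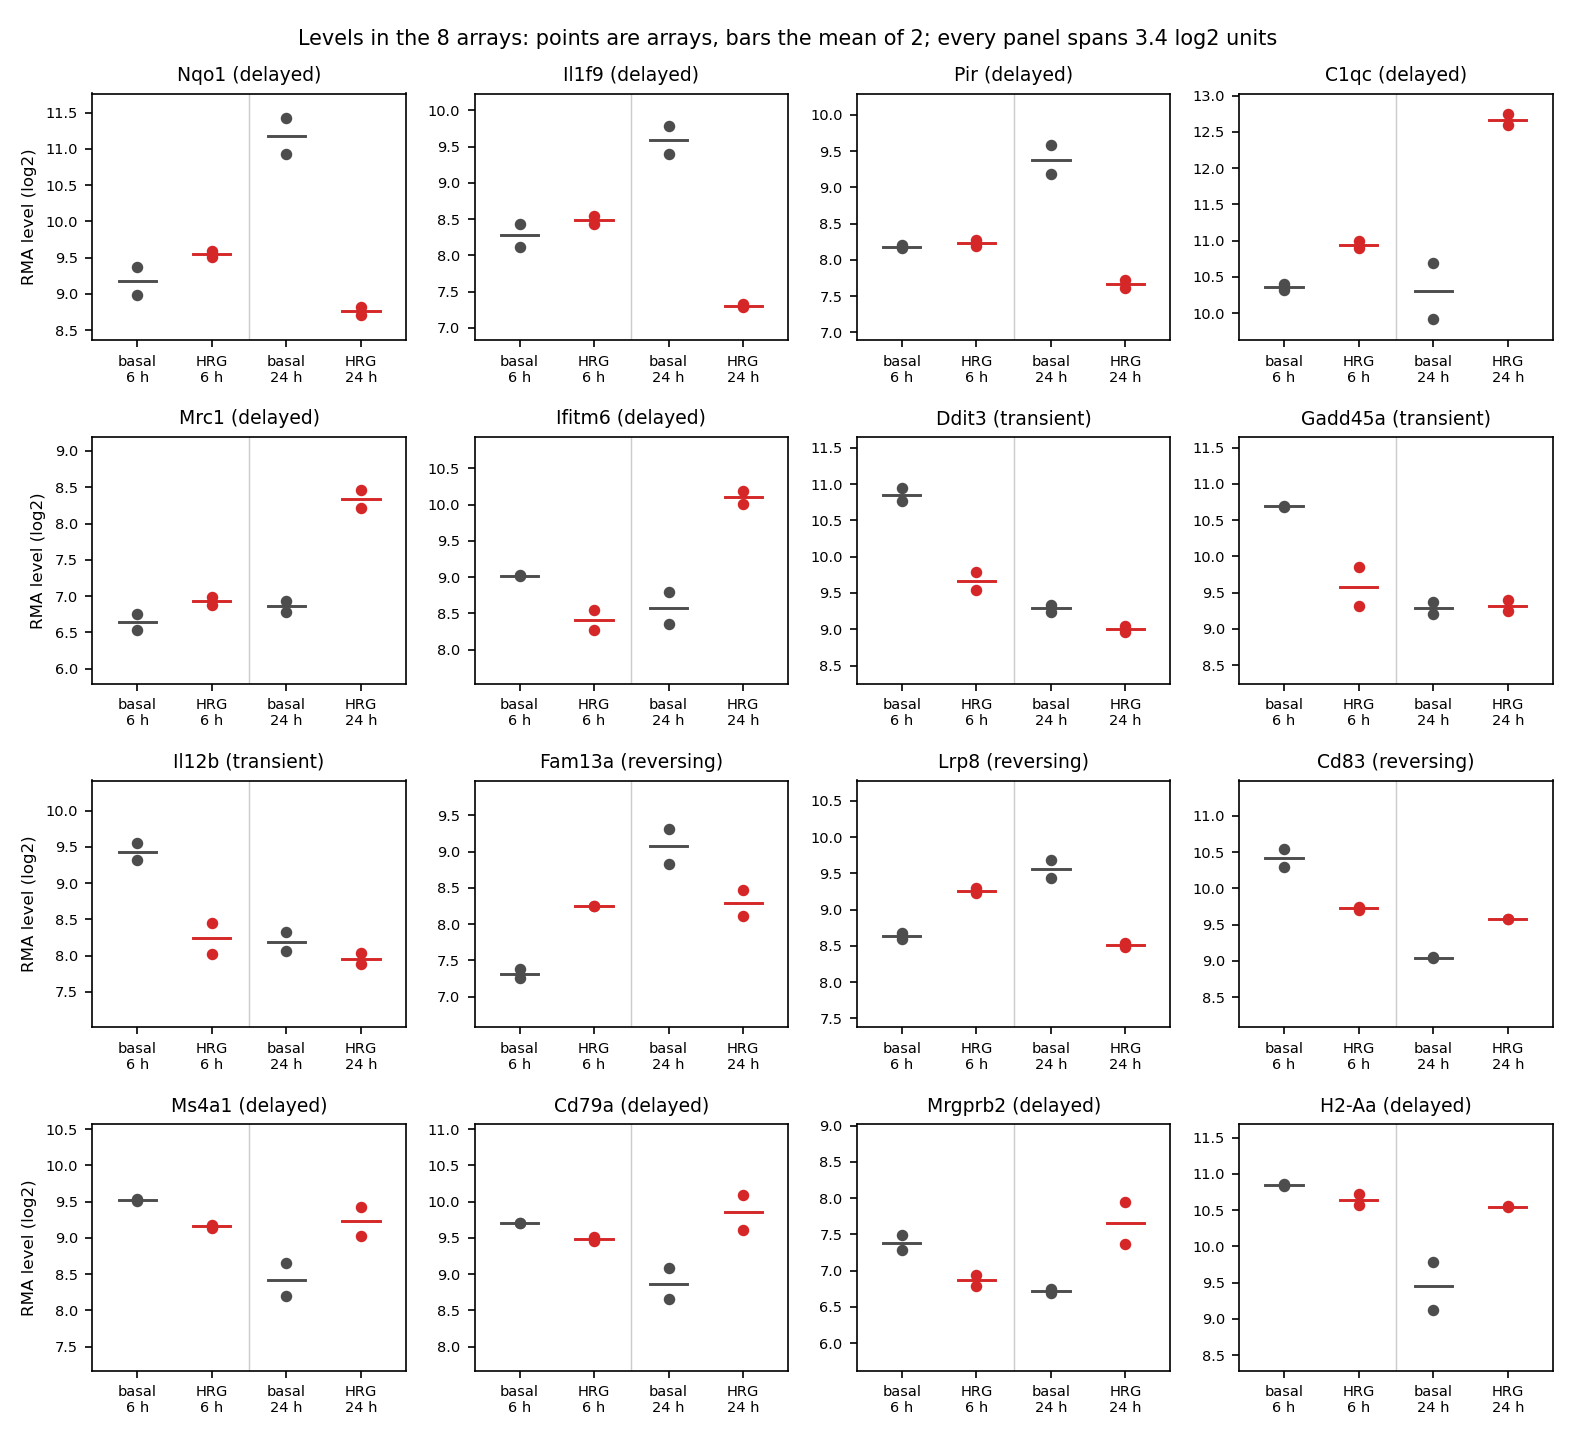
RMA levels (y axis, log2) of 16 genes in the 4 groups (x axis), with 1 point per array, a bar at the mean of 2 arrays, HRG in red and basal in grey; each panel has its own range and the same span. In Nqo1, Il1f9 and Pir the basal arrays at 24 h lie above all others, in C1qc, Mrc1 and Ifitm6 the HRG arrays at 24 h do, and in Ddit3, Gadd45a and Il12b the basal arrays at 6 h do.

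Delayed rises included opsonins and surface receptors of macrophages. All 3 C1q subunits were called by the interaction, against 1.47% of all genes. Levels of C1qc were 10.41 and 10.32 in basal and 10.89 and 11.00 in HRG arrays at 6 h, and 10.70 and 9.92 in basal and 12.74 and 12.59 in HRG arrays at 24 h. HRG arrays lay above basal arrays at both times, and the 24 h HRG arrays stood clear of all others. The HRG effect on C1qc was 0.58 ± 0.19 at 6 h (95% interval 0.17 to 0.99, adjusted p = 0.22) and 2.36 ± 0.19 at 24 h, with an interaction of 1.78 ± 0.27 (limma adjusted p = 0.0082). C1qa and C1qb had interactions of 1.36 ± 0.23 and 1.10 ± 0.19, after 6 h effects of 0.51 ± 0.16 and 0.56 ± 0.13 that were not called. By their estimates the 3 subunits were thus already higher at 6 h, and delayed describes their calls. C1qc lost its call without HRG 24 h replicate 1 (adjusted p = 0.062), C1qa without HRG 6 h replicate 2 or HRG 24 h replicates 1 and 2 (adjusted p = 0.053 to 0.087) and C1qb without HRG 6 h replicates 1 and 2 or HRG 24 h replicate 1 (adjusted p = 0.051 to 0.1).

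Vsig4, the complement receptor CRIg, was 1 of the 2 growing genes. Its levels were 8.90 and 8.61 in basal and 9.33 and 9.76 in HRG arrays at 6 h, and 9.10 and 8.81 in basal and 11.09 and 11.03 in HRG arrays at 24 h. HRG arrays were above basal arrays at each time without overlap, by 0.79 ± 0.15 at 6 h and 2.10 ± 0.15 at 24 h. The interaction was 1.31 ± 0.21 (limma adjusted p = 0.013), and it was lost without HRG 24 h replicate 1 (adjusted p = 0.082). Olfml3, a secreted olfactomedin-like protein, was the other growing gene, with 0.69 ± 0.13 at 6 h, 1.63 ± 0.13 at 24 h and an interaction of 0.94 ± 0.18 (adjusted p = 0.03), lost without 5 of the 8 arrays (adjusted p = 0.061 to 0.17).

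Of 42 measured phagocytic and complement receptors, 5 were higher at 24 h by the interaction (against 1.02% of all genes) and none lower (against 0.451%). In the 24 h comparison 17 of them rose (against 2.43% of all genes) and 1 fell (against 1.05%). Mrc1, the mannose receptor CD206, had levels of 6.75 and 6.53 in basal and 6.87 and 6.98 in HRG arrays at 6 h, and 6.94 and 6.78 in basal and 8.46 and 8.21 in HRG arrays at 24 h. The 6 h arrays and the 24 h basal arrays lay together at 6.53 to 6.98, under the median level of all genes (7.48). Only the 24 h HRG arrays lay above that median. Its HRG effect of 1.47 ± 0.12 at 24 h gave an interaction of 1.19 ± 0.17 (limma adjusted p = 0.0065). Fcgr4, an activating Fc receptor, had an interaction of 1.25 ± 0.16 and Timd4, the phosphatidylserine receptor TIM-4, one of 0.74 ± 0.16. Cd93, a lectin-like receptor, had 0.72 ± 0.15. The calls of Mrc1 and Fcgr4 held without any single array, and those of Timd4 and Cd93 were lost without 5 and 7 of them. After renewed quantile normalization Cd93 no longer passed. The count of 5 was 2 without HRG 24 h replicate 1, 3 without basal 24 h replicate 2 or HRG 6 h replicate 1, 3 with 1 lower gene beside them without basal 6 h replicate 1, and 4 to 7 without the others.

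Ifitm6, an interferon-induced transmembrane protein of monocytes, had the largest positive interaction of all genes. Its levels were 9.01 and 9.03 in basal and 8.27 and 8.54 in HRG arrays at 6 h, and 8.80 and 8.36 in basal and 10.19 and 10.01 in HRG arrays at 24 h. HRG arrays lay below basal arrays at 6 h and above all other arrays at 24 h. The 6 h effect of -0.61 ± 0.14 was not called (adjusted p = 0.077), the 24 h effect was 1.52 ± 0.14, and the interaction was 2.13 ± 0.20 (limma adjusted p = 8.2e-04). Ifitm6 is 1 of 2 called members among 29 interferon-stimulated genes, whose median interaction was 0.37, and Irf1, with 0.72 ± 0.14, is the other. Irf1 lost its call without 6 of the 8 arrays (adjusted p = 0.066 to 0.14) and had 0.34 with its array rows averaged, where it was not called, and the median of the list was 0.10 without basal 24 h replicate 2. Other delayed rises were Adgre4, an adhesion receptor of macrophages (1.48 ± 0.21), the small surface glycoprotein Cd52 (1.33 ± 0.17), the membrane proteins Tmem176a (1.28 ± 0.15) and Clec12a, an inhibitory lectin (1.16 ± 0.17), the chemokine receptor Cxcr4 (1.01 ± 0.13) and Aif1, the calcium-binding protein IBA1 (1.06 ± 0.14). Of these, Adgre4 lost its call without HRG 24 h replicate 1 (adjusted p = 0.055), and the others held without any single array. Trem1, a receptor that amplifies inflammation, had 0.91 ± 0.17 and was lost without 5 of the 8 arrays.

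Lipid and matrix genes were also among the delayed rises. Fabp4 and Fabp5, fatty acid binding proteins, had interactions of 1.14 ± 0.15 and 1.20 ± 0.18, and Scd1, the stearoyl-CoA desaturase, one of 1.44 ± 0.19. They were the 3 called members of 26 LXR and lipid handling genes, against 1.47% of all genes called. In Fabp5 the HRG arrays at 24 h reached 1.08 ± 0.13 above basal, whereas in Scd1 basal arrays fell by 1.78 between 6 h and 24 h and HRG arrays had -0.35 ± 0.13. Of 34 protease and matrix genes, 6 were called, all higher (against 1.02% of all genes). Among them were the metalloproteinase inhibitors Timp3 (1.23 ± 0.16) and Timp1 (0.94 ± 0.13), the gelatinase Mmp9 (1.01 ± 0.14) and Sparc, a matrix glycoprotein (1.32 ± 0.24). Timp1 and Mmp9 differed from Timp3 in the time course: Timp1 fell by 1.10 and Mmp9 by 1.31 in basal arrays, and Timp3 rose by 1.08 ± 0.11 in HRG arrays with -0.15 ± 0.11 in basal ones. Of these genes Fabp5 lost its call without HRG 24 h replicate 1 (adjusted p = 0.053) and Sparc without HRG 6 h replicates 1 and 2 or HRG 24 h replicates 1 and 2 (adjusted p = 0.051 to 0.13), and the others held without any single array.

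The HRG effect was higher at 24 h than at 6 h in several antigen presentation genes and markers of B cells and mast cells. The median change with time in these 3 lists was -0.56, -0.78 and -0.63 in basal arrays. In HRG arrays it was -0.10, 0.07 and 0.10. Of 19 antigen presentation genes, 5 were called higher (against 1.02% of all genes) and none lower (against 0.451%), with a median of 0.47. H2-Aa, an MHC class II chain, had levels of 10.85 and 10.84 in basal and 10.72 and 10.57 in HRG arrays at 6 h, and 9.78 and 9.12 in basal and 10.55 and 10.54 in HRG arrays at 24 h. The 24 h basal arrays were the lowest, and the 24 h HRG arrays lay near the 6 h arrays of both groups. The interaction was 1.30 ± 0.23 (limma adjusted p = 0.021). Cd74, the invariant chain, had 0.99 ± 0.16, H2-DMa, an MHC class II peptide-loading subunit, 0.73 ± 0.15, and the costimulatory ligand Cd86 0.89 ± 0.14. The count of antigen presentation genes was 0 without HRG 6 h replicate 2 or HRG 24 h replicate 1, 1 without HRG 24 h replicate 2, 3 without basal 6 h replicate 1, basal 24 h replicate 2 or HRG 6 h replicate 1, and 5 or 6 without the others.

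Of 23 B cell markers, 13 were called higher (against 1.02% of all genes) and none lower (against 0.451%), with a median of 0.86. The mean level of the 23 was 8.84 to 8.88 in basal arrays at 6 h, 8.59 to 8.60 in HRG arrays at 6 h, 8.05 to 8.30 in basal arrays at 24 h and 8.60 to 8.79 in HRG arrays at 24 h, and 20 of them reached the median level of all genes in some group. Ms4a1, the B cell surface protein CD20, had levels of 9.52 and 9.54 in basal and 9.18 and 9.14 in HRG arrays at 6 h, and 8.65 and 8.20 in basal and 9.43 and 9.03 in HRG arrays at 24 h. The 24 h basal arrays were the lowest, and its interaction was 1.17 ± 0.21 (limma adjusted p = 0.022). Cd79a, a chain of the B cell receptor complex, had 1.20 ± 0.22, Spib, a transcription factor of B cells, 1.24 ± 0.23, and Cd72, a B cell coreceptor also made by macrophages, 0.87 ± 0.13. Jchain, the joining chain of secreted antibodies, was picked after its value was seen and had 1.26 ± 0.14. In this bulk RNA, fewer B cells and less of these transcripts per cell cannot be told apart.

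Of 14 mast cell markers, 7 were called higher (against 1.02% of all genes) and none lower (against 0.451%), with a median of 0.81. Their mean level was 9.30 to 9.40 in basal arrays at 6 h, 9.13 to 9.22 in HRG arrays at 6 h, 8.67 to 8.87 in basal arrays at 24 h and 9.15 to 9.49 in HRG arrays at 24 h. Mrgprb2, a mast cell receptor for basic peptides, had levels of 7.49 and 7.28 in basal and 6.94 and 6.79 in HRG arrays at 6 h, and 6.75 and 6.70 in basal and 7.95 and 7.37 in HRG arrays at 24 h. HRG arrays were below basal arrays at 6 h and above them at 24 h, and the interaction was 1.45 ± 0.22 (limma adjusted p = 0.01). Hdc, which makes histamine, had 0.88 ± 0.15, Gata2, a transcription factor of mast cells, 0.94 ± 0.15, and Slc18a2, the monoamine transporter of their granules, 1.11 ± 0.18. Since B cells and dendritic cells also carry MHC class II, these values stand beside the antigen presentation genes, and the part of other cell types in that result was not tested. Without HRG 24 h replicate 1 the called B cell and mast cell markers each numbered 1. The B cell count was 1 to 17 and the mast cell count 1 to 7 over the 8 fits that left out 1 array. The B cell count was 1 without HRG 6 h replicate 2, 2 without basal 24 h replicate 2 or HRG 6 h replicate 1, 5 without basal 6 h replicate 1 and 7 without HRG 24 h replicate 2, and the mast cell count was 2 and 3 without HRG 6 h replicates 1 and 2 and 4 without basal 6 h or basal 24 h replicate 1.

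Markers of other myeloid states were called in smaller numbers, beside 1.02% of all genes called higher and 0.451% lower. Of 20 markers of small peritoneal macrophages and monocytes, 4 were higher and none lower, with a median of 0.34. They were Ifitm6, Mrc1, Irf4 and Plac8, a small cysteine-rich protein of monocytes and B cells. Plac8 had levels of 9.15 and 9.01 in basal and 8.79 and 8.74 in HRG arrays at 6 h, and 7.81 and 7.54 in basal and 8.45 and 8.24 in HRG arrays at 24 h. The 24 h basal arrays were the lowest of the 8, and the interaction was 0.98 ± 0.17 (limma adjusted p = 0.016), lost without basal 24 h replicate 2, HRG 6 h replicate 2 or HRG 24 h replicate 1 (adjusted p = 0.056 to 0.099). Of 19 dendritic cell markers, 4 were higher, with a median of 0.51: Ccl22, Ccr7, Fscn1 and Dpp4, the peptidase CD26, at 0.84 ± 0.15. The mean level of these 19 was 7.64 to 7.79 in basal arrays at 24 h and 7.86 to 8.13 in the other 3 groups. The dendritic cell count was 0 without HRG 6 h replicate 2 or HRG 24 h replicate 1, 1 without basal 24 h replicate 2 and 2 without basal 6 h replicate 1 or HRG 6 h replicate 1, and that of small peritoneal macrophages and monocytes was 2 without basal 24 h replicate 2, HRG 6 h replicate 2 or HRG 24 h replicate 1.

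Of 24 markers of large resident peritoneal macrophages, Vsig4 and Timd4 were higher and Ednrb lower, and the median was 0.16, with 0.09 to 0.10 without basal 6 h replicate 1, basal 24 h replicate 2 or HRG 24 h replicate 1. Their mean level was 10.05 to 10.14 in basal and 10.24 to 10.47 in HRG arrays. Among all genes 1.02% were higher and 0.451% lower by the interaction. Of 25 genes of alternative activation, Mrc1, Irf4 and Ccl22, a chemokine of alternatively activated cells, were higher, 1 of them without HRG 6 h replicate 2 or HRG 24 h replicate 1 and 6 genes without basal 24 h replicate 1. Of 23 genes of the NF-kappa B pathway, Cd83 and Icam1 were higher, of 19 SOCS and STAT genes Stat4, and of 30 cell cycle genes Ccnd2, a D-type cyclin (0.89 ± 0.14), and Top2a, a DNA topoisomerase of dividing cells (0.81 ± 0.16). With its array rows averaged, Top2a had 0.43 and was not called. Neither cell cycle call held without HRG 6 h replicate 1, HRG 24 h replicate 1 or basal 24 h replicate 2. Of 17 neutrophil markers, Mmp9 and Trem1 were higher, with a median of 0.00 and mean levels of 7.47 to 7.68. None of 5 eosinophil and 17 mesothelial and fibroblast markers was called by limma, 2 and 1 of them had an unadjusted p under 0.05, and with a trended, robust prior 1 and 0 were called.

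**Figure D3:**
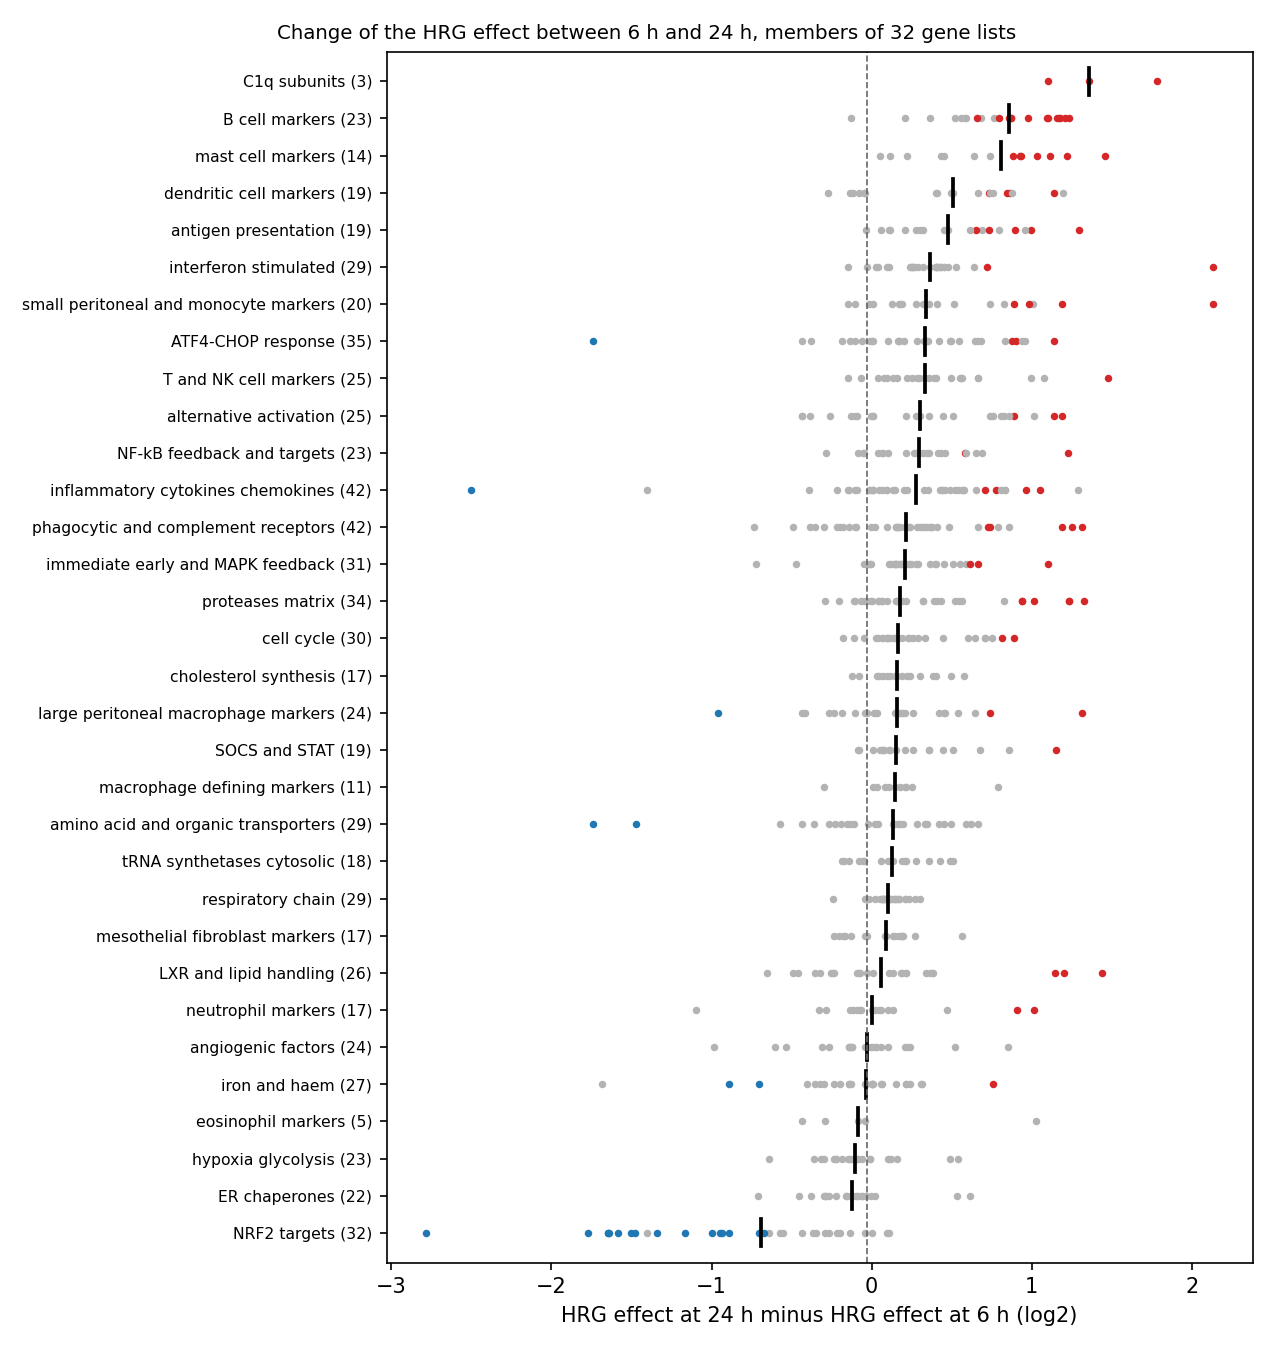
Interaction (x axis, log2) of every measured member of 32 gene lists (rows, number of members in brackets); red points were called higher, blue points lower, grey points not called, black bars are list medians and the dashed line is the median of all genes (-0.03). C1q subunits, B cell markers and mast cell markers have the highest medians (1.36, 0.86 and 0.81) and NRF2 targets the lowest (-0.69).

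Transient effects were mostly early falls. By the definition used, every transient gene with a higher interaction had fallen at 6 h. These 36 genes had a median HRG effect of -0.72 at 6 h and of 0.18 at 24 h. In 32 of these 36 the basal arrays fell between 6 h and 24 h, with a median basal change of -0.79 against 0.11 with HRG, beside 1851 of all genes (9.28%) called in the basal time course, 758 higher (3.80%) and 1093 lower (5.48%) at 24 h, and 1452 (7.28%) in the HRG time course, 880 higher (4.41%) and 572 lower (2.87%). The basal arrays at 6 h enter both the 6 h effect and the basal time course.

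Ddit3, which encodes the stress factor CHOP, had levels of 10.94 and 10.77 in basal and 9.79 and 9.54 in HRG arrays at 6 h, and 9.24 and 9.33 in basal and 8.96 and 9.04 in HRG arrays at 24 h. The 6 h basal arrays were the highest by a wide margin, and the 6 h HRG arrays were nearer to the 24 h arrays of both groups. The HRG effect was -1.19 ± 0.11 at 6 h and -0.29 ± 0.11 at 24 h, with an interaction of 0.90 ± 0.16 (limma adjusted p = 0.017). Gadd45a, a growth arrest gene, had levels of 10.69 and 10.69 in basal and 9.85 and 9.31 in HRG arrays at 6 h, and 9.20 and 9.38 in basal and 9.24 and 9.40 in HRG arrays at 24 h. Its 24 h arrays overlapped between basal and HRG, and the interaction was 1.14 ± 0.21 (limma adjusted p = 0.024). Chac1, an enzyme that degrades glutathione and is a target of ATF4 and CHOP, had -1.09 ± 0.12 at 6 h, -0.22 ± 0.12 at 24 h and an interaction of 0.88 ± 0.17 (adjusted p = 0.027).

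Ddit3, Gadd45a and Chac1 were the 3 of 35 ATF4-CHOP genes with a higher interaction, beside the fall of Slc6a9, and the median over the 35 was 0.33, or 0.14 without basal 24 h replicate 1 and 0.21 without HRG 6 h replicate 2. At 6 h 15 of the 35 fell and none rose, and at 24 h 6 fell and none rose. Among all genes 0.818% fell and 0.431% rose at 6 h, and 1.05% fell and 2.43% rose at 24 h. Other members fell at 6 h and kept a negative estimate at 24 h: Asns had -1.09 ± 0.13 and -0.75 ± 0.13, and Trib3, a CHOP-induced pseudokinase, -1.06 ± 0.12 and -0.89 ± 0.12, with interactions of 0.34 ± 0.19 (limma adjusted p = 0.57) and 0.17 ± 0.17 (adjusted p = 0.79). The call of Ddit3 was lost without HRG 6 h replicate 2 or HRG 24 h replicates 1 and 2 (adjusted p = 0.063 to 0.09), that of Gadd45a without HRG 6 h replicate 2 or HRG 24 h replicates 1 and 2 (adjusted p = 0.06 to 0.09), and that of Chac1 without 7 of the 8 arrays (adjusted p = 0.051 to 0.15). No ATF4-CHOP gene was called higher without HRG 6 h replicate 2, HRG 24 h replicate 1 or HRG 24 h replicate 2.

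Il12b, Csf1 and Ccr7 were transient as well. Il12b, the shared p40 subunit of IL-12 and IL-23, had levels of 9.55 and 9.32 in basal and 8.45 and 8.02 in HRG arrays at 6 h, and 8.07 and 8.32 in basal and 7.88 and 8.04 in HRG arrays at 24 h. Only the 6 h basal arrays stood out, and the other 6 arrays lay between 7.88 and 8.45. The HRG effect was -1.20 ± 0.15 at 6 h and -0.23 ± 0.15 at 24 h, and the interaction was 0.96 ± 0.21 (limma adjusted p = 0.044). Csf1, the macrophage growth factor M-CSF, had -0.71 ± 0.11 at 6 h, 0.00 ± 0.11 at 24 h and an interaction of 0.71 ± 0.15. Ccr7, a receptor that guides cells to lymph nodes, had -0.54 ± 0.11, 0.20 ± 0.11 and 0.73 ± 0.16. Il6 had -0.94 ± 0.13 at 6 h and -0.50 ± 0.13 at 24 h and was not called by the interaction (0.44 ± 0.19, limma adjusted p = 0.41). The transient calls were weakly held by single arrays: Il12b was lost without 6 of the 8 arrays (adjusted p = 0.063 to 0.17), Csf1 without 7 and Ccr7 without 6.

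The largest transient estimates belonged to other genes. Cd3g, a chain of the T cell receptor complex, had -1.11 ± 0.21 at 6 h, 0.37 ± 0.21 at 24 h and an interaction of 1.48 ± 0.30 (limma adjusted p = 0.034). Cd3g lost its call after renewed quantile normalization and passed in 6 of the 9 alternatives that kept all arrays. It was the only 1 of 25 T and NK cell markers called, and the mean level of the 25 was 7.07 to 7.53 over the 8 arrays, and no T or NK marker was called without basal 6 h replicate 2 or any 1 of the 4 HRG arrays. Fam171b had 1.27 ± 0.28, Gimap3, a GTPase of lymphocytes, 1.31 ± 0.25, Rgs1, a regulator of G protein signalling, 1.22 ± 0.23, and Mospd4 1.10 ± 0.18. Mospd4 lost its call without HRG 24 h replicate 1 (adjusted p = 0.076), and Cd3g, Fam171b, Gimap3 and Rgs1 without 5, 6, 5 and 5 of the 8 arrays. The number of transient genes was 2 without HRG 6 h replicate 2 and at most 66 without another array, and 117 with a trended, robust prior.

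Early rises that were not called at 24 h numbered 11. Cebpa, the transcription factor C/EBP alpha of myeloid cells, had levels of 9.76 and 9.76 in basal and 10.54 and 10.39 in HRG arrays at 6 h, and 10.08 and 10.23 in basal and 10.18 and 10.02 in HRG arrays at 24 h. The 6 h HRG arrays were the highest of the 8 and the 24 h groups overlapped. The HRG effect was 0.71 ± 0.10 at 6 h and -0.05 ± 0.10 at 24 h, with an interaction of -0.76 ± 0.15 (limma adjusted p = 0.027). Sephs2, which makes selenophosphate for selenoproteins, had -0.85 ± 0.14, Sec24d, a coat protein of vesicles leaving the endoplasmic reticulum, -0.89 ± 0.16, Pgm1, a phosphoglucomutase, -0.77 ± 0.13, Alas1, the first enzyme of haem synthesis, -0.71 ± 0.14, and the lipid-presenting molecule Cd1d1 -0.73 ± 0.15. In 8 of these 11 genes the basal arrays rose with time, beside 3.80% of all genes. Sephs2 lost its call without basal 24 h replicate 2, HRG 6 h replicate 1 or HRG 24 h replicate 1 (adjusted p = 0.053 to 0.076), and Cebpa, Sec24d, Pgm1, Alas1 and Cd1d1 without 6, 5, 5, 6 and 7 of the 8 arrays.

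The 7 reversing genes passed at both times with opposite signs, and 6 of them kept their interaction call without any single array. Fam13a had levels of 7.39 and 7.25 in basal and 8.25 and 8.25 in HRG arrays at 6 h, and 8.83 and 9.31 in basal and 8.47 and 8.11 in HRG arrays at 24 h. HRG arrays lay above basal arrays at 6 h and below them at 24 h, without overlap at either time. The effect went from 0.93 ± 0.15 to -0.78 ± 0.15, with an interaction of -1.72 ± 0.22 (limma adjusted p = 0.0042). In basal arrays Fam13a rose by 1.76 ± 0.15 with time, while HRG arrays had 0.04 ± 0.15.

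Lrp8, a receptor for apolipoprotein E and reelin, had levels of 8.68 and 8.60 in basal and 9.23 and 9.29 in HRG arrays at 6 h, and 9.43 and 9.68 in basal and 8.54 and 8.48 in HRG arrays at 24 h. The order of basal and HRG arrays was turned between the times, without overlap, and the interaction was -1.67 ± 0.15 (limma adjusted p = 5.8e-04), from 0.62 ± 0.11 at 6 h to -1.05 ± 0.11 at 24 h. Slc16a9, a monocarboxylate transporter, had levels of 9.55 and 9.49 in basal and 10.24 and 10.18 in HRG arrays at 6 h, and 9.81 and 9.85 in basal and 9.05 and 9.04 in HRG arrays at 24 h. Its replicates differed little, the 6 h HRG arrays were the highest and the 24 h HRG arrays the lowest of the 8, and the interaction was -1.47 ± 0.13 (adjusted p = 5.5e-04). Averaged over its array rows, Slc16a9 had -0.92 (adjusted p = 0.0097). Slc16a9 and Slc6a9 were the 2 called among 29 amino acid and organic solute transporters.

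The other 4 reversing genes were lowered by HRG at 6 h and raised at 24 h. Cd83, a surface marker of mature dendritic cells and activated lymphocytes, had levels of 10.54 and 10.29 in basal and 9.74 and 9.71 in HRG arrays at 6 h, and 9.05 and 9.04 in basal and 9.58 and 9.57 in HRG arrays at 24 h. The 2 HRG groups lay between the 6 h and 24 h basal groups, and the interaction was 1.23 ± 0.14 (limma adjusted p = 0.0037). Tnfsf9, the ligand of the costimulatory receptor 4-1BB, had levels of 8.69 and 8.56 in basal and 8.02 and 8.10 in HRG arrays at 6 h, and 8.87 and 8.94 in basal and 9.40 and 9.37 in HRG arrays at 24 h. HRG arrays were the lowest at 6 h and the highest at 24 h, with an interaction of 1.05 ± 0.13 (adjusted p = 0.0042). Sema7a, a membrane semaphorin, changed from -0.48 ± 0.09 to 0.54 ± 0.09, an interaction of 1.02 ± 0.13. Stat4, the transcription factor that acts below the IL-12 receptor, changed from -0.56 ± 0.12 to 0.60 ± 0.12, an interaction of 1.15 ± 0.17, lost without HRG 24 h replicate 1 (adjusted p = 0.053). The reversing class held 0 genes without HRG 6 h replicate 2, where only 21 genes were called at 6 h, and 17 without basal 24 h replicate 1.

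Genes called by the interaction but at neither time had small estimates of opposite sign, as these thresholds require. Their median size was 0.42 at 6 h and 0.40 at 24 h. Of the 34, 30 had a higher interaction, and in 25 of those 30 the basal arrays fell with time, beside 5.48% of all genes. Irf4, a transcription factor of B cells and alternatively activated macrophages, had -0.48 ± 0.12 at 6 h, 0.40 ± 0.12 at 24 h and an interaction of 0.89 ± 0.18 (limma adjusted p = 0.031). Bank1 and Btla, a B cell scaffold and a lymphocyte inhibitory receptor, had 1.10 ± 0.22 and 1.03 ± 0.23. Fscn1, an actin-bundling protein of mature dendritic cells, had 0.86 ± 0.17, and Alas2, the erythroid form of the haem enzyme, 0.89 ± 0.19. Sort1, a sorting receptor, had -0.85 ± 0.18 and H6pd, a microsomal NADPH-making enzyme, -0.86 ± 0.17. None of the 34 kept its call in all 8 fits that left out 1 array.

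Sorted by the 2 time courses, more of the 294 genes changed in basal arrays alone than in HRG arrays alone. The time change was called in basal arrays only for 148 genes, in HRG arrays only for 84, in both in opposite ways for 37, in both the same way for 22 and in neither for 3. Of the 204 genes with a higher interaction, 131 fell and 7 rose with time in basal arrays, and 85 rose and 11 fell in HRG arrays. Of the 90 with a lower interaction, 68 rose and 1 fell in basal arrays, and 44 fell and 3 rose in HRG arrays. Over all genes the basal time course was called in 9.28% (3.80% higher, 5.48% lower). The HRG time course was called in 7.28% (4.41% higher, 2.87% lower). Since the interaction is the HRG time change minus the basal one, selecting by it favours basal falls among higher genes and basal rises among lower ones. Nqo1 and Il1f9 were among those called in opposite ways, C1qc, Mrc1, Ifitm6 and Slc6a9 were called with HRG only, and H2-Aa, Cd74, Scd1 and Fam13a in basal arrays only. Adgre4 rose in both, by 0.99 ± 0.15 without and 2.47 ± 0.15 with HRG.

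**Figure D4:**
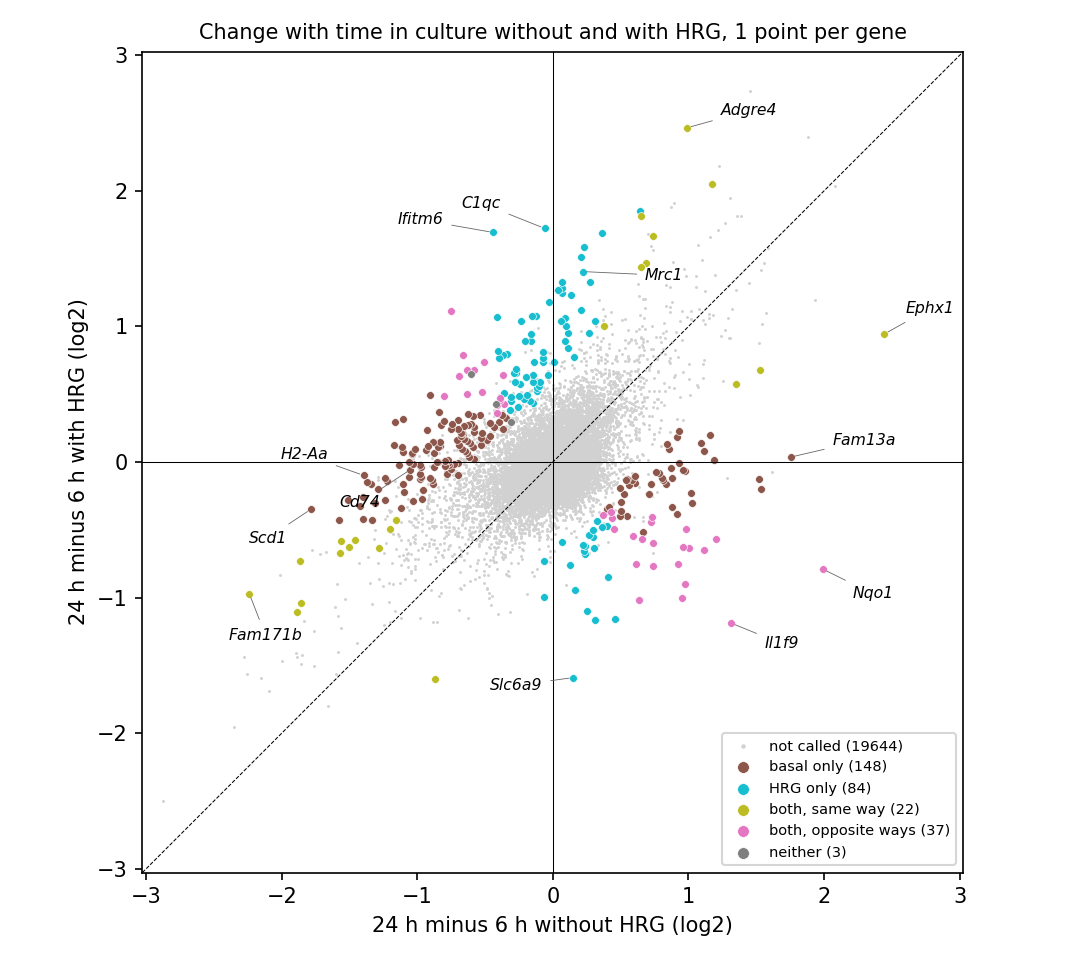
Change from 6 h to 24 h without HRG (x axis, log2) against the change with HRG (y axis, log2), 1 point per gene, with the 294 genes called by the interaction coloured by which time course was called and the dashed line marking equal change. Genes called in basal arrays only (148) lie along the x axis and genes called in HRG arrays only (84) along the y axis.

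Immediate early and inflammatory genes were called in small numbers, beside 1.02% of all genes called higher and 0.451% lower. Of 31 immediate early and MAPK feedback genes, 3 were higher, Nr4a3 (1.10 ± 0.17), Fos (0.67 ± 0.13) and Nr4a1 (0.61 ± 0.13), all delayed. Of 42 cytokines and chemokines, 4 were higher and 1, Il1f9, lower. The higher ones were Tnfsf9, Il12b, Csf1 and Ccl7, a monocyte chemokine (0.78 ± 0.14). Ccl22 had 1.14 ± 0.18, and the adhesion molecule Icam1 0.58 ± 0.13. Nr4a3 and Ccl22 lost their calls without HRG 24 h replicate 1 (adjusted p = 0.065) and without HRG 6 h replicate 2 or HRG 24 h replicate 1 (adjusted p = 0.054 to 0.058), and Fos, Nr4a1, Ccl7 and Icam1 without 7, 8, 4 and 8 of the 8 arrays. Of 27 iron and haem genes, Blvrb and Alas1 were lower and the metallothionein Mt2 (0.76 ± 0.16) higher, and Mt2 lost its call whichever array was left out. The cytokine count of 4 higher was 1 without HRG 6 h replicate 2 or either HRG 24 h array, 2 without basal 6 h replicate 1 and 7 without basal 24 h replicate 1, which also raised the lower count to 3. The immediate early count of higher genes was smaller whichever array was left out, and without basal 24 h replicate 1 the list also held a lower call.

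Several lists had no called member by the limma interaction. These were 18 cytosolic tRNA synthetases (median 0.13), 22 chaperones of the endoplasmic reticulum (-0.12), 17 genes of cholesterol synthesis (0.16), 24 angiogenic factors (-0.03), 23 genes of hypoxia and glycolysis (-0.10) and 29 subunits of the respiratory chain (0.10). With no adjustment, 4, 5, 3, 5, 5 and 1 of their members had p under 0.05, and with a trended, robust prior 1, 2, 0, 2, 0 and 0 were called. Among genes raised at both times, Olr1 and Gatm did not pass. Olr1, a receptor for oxidised lipoprotein, had 1.51 ± 0.10 at 6 h and 1.02 ± 0.10 at 24 h with an interaction of -0.49 ± 0.14 (limma adjusted p = 0.15). Gatm, an enzyme of creatine synthesis, had 1.56 ± 0.12 and 2.15 ± 0.12 with 0.59 ± 0.17 (adjusted p = 0.14). Olr1 passed under renewed quantile normalization, with a trended, robust prior and with the lower-quartile covariate.

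The calls just inside and just outside the threshold were alike in size. Ly6d and Prnp, with interactions of 0.66 and 0.69, had limma adjusted p = 0.0497 and 0.0498, and Tsc22d3 and Sp140, with 0.62 and 0.82, had 0.050 for both. Of the 294 genes, 48 (16.3%) kept their call in all 8 fits that left out 1 array and 8 in none, and 20 were dim, with a highest group mean under the median level of all genes. Array rows of near-identical family members, such as Gsta3, Fcgr4, Bcl2a1c, Gimap3, Mrgprb2 and the H2 genes, can take signal from one another.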

How the data were processed

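RNA of 8 samples of mouse peritoneal macrophages was hybridised to Affymetrix arrays, 1 array per sample. The authors deposited log2 expression values, and the submitters' processing notes name Affymetrix Expression Console, RMA and limma, without versions. Background correction and normalization were thus done before deposit, and the genome build of the array design is not given in the sources used here. Scan dates and slides were not used here, so batches among the arrays could not be examined. The number of arrays limits the precision.

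Groups and replicate numbers came from the sample titles. Of 28853 array rows, 21789 had 1 gene symbol in the platform annotation, 1621 had several and 5443 had none. Gene IDs of 21698 rows matched RefSeq (GRCm38.p6) and no symbol changed. Rows with 1 symbol were kept, and the brightest row stood for each of 999 genes with several. limma 3.58.1 in R 4.3.3 fitted 1 mean per group over the 8 arrays (4 residual and 7.81 prior degrees of freedom), with two-sided tests and Benjamini-Hochberg adjustment over 19938 genes. The code was tested on simulated data.

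The genes described and all lists (32 lists with 806 entries, 754 measured) were chosen with earlier results of these data known. Genes were named by a rule: the 15 largest interactions each way, the 8 largest per pattern and direction, up to 4 per list with the smallest p, and 19 genes named in any case, with predicted genes, small RNAs, antigen receptor segments and olfactory or vomeronasal receptors left out. Not every gene so named is described above. Cdh6, Lrrc75a, P2ry10, Arhgap6, Maml2, Serpinb6b, Sorbs3, Treml2, Wnt2, Edem2 and Teddm3 are among those left undescribed. Bcl2a1c, among the largest positive interactions, had 1.42. Gss, Ptgr1, Clec12a, Cxcr4, Aif1, Jchain, Mir155, Txnrd1, Gclm, Ephx1, Taldo1, Pgd, Abcc1, Gsta3, Cd79a, Hmox1, Slc7a11, Jdp2, Aqp9 and any other gene outside the rule were chosen after their values were seen. Alternatives were a replicate block, a trended and robust prior, renewed quantile normalization, median centring, leaving out the dimmest 30% of genes, averaging the rows of a gene, testing every row, a minimum fold of 1.5, each array's lower quartile as a covariate, other rules for the calls at a time, and leaving out each array.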

Additional observations from a re-analysis of the deposited data

Results flagged for a closer look

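Each result here was singled out because the HRG effect at 24 h differed from that at 6 h by a test of the difference itself, the limma interaction with Benjamini-Hochberg adjustment. Every other gene named above with an adjusted p under 0.05 met the same criterion, and its value stands in the report. By that test 204 genes had a higher and 90 a lower HRG effect at 24 h. Sorted by the calls at each time, 47 of these were transient, 204 delayed, 7 reversing and 2 growing, and 34 were called at neither time.

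In 7 genes the HRG effects at the 2 times were each called and had opposite signs. The interaction was -1.72 for Fam13a, -1.67 for Lrp8, -1.47 for Slc16a9, 1.23 for Cd83, 1.15 for Stat4, 1.05 for Tnfsf9 and 1.02 for Sema7a. With 2 arrays per group no search for single deviating arrays was made within groups.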

How the results depend on the processing

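No named gene changed the sign of its interaction under any alternative, but the balance of higher and lower calls turned against a minimum fold of 1.5. Calls were lost by 99 named genes against that fold and by 46 with every array row tested. Renewed quantile normalization took the call from 6 named genes, and each other alternative that kept all arrays from 0 to 3. With a trended, robust prior 392 genes were higher and 155 lower by the interaction, 492 were called at 6 h, and 117 were transient, 328 delayed, 22 reversing, 7 growing and 71 called at neither time. With every array row tested 105 were higher, 134 were called at 6 h, and 12 were transient, 133 delayed, 0 growing and 14 at neither time. Against a minimum fold of 1.5, 1 was higher (Ifitm6) and 5 lower, 2 were called at 6 h and 32 at 24 h, and 0 were transient, 4 delayed, 0 reversing, 0 growing and 2 at neither time. With each array's lower quartile as a covariate 215 were lower, 518 were called at 6 h and 1099 at 24 h, and 103 were transient, 328 delayed, 29 reversing, 5 growing and 52 at neither time. Renewed quantile normalization gave 12 reversing genes, and leaving out the dimmest 30% gave 4 growing and 55 at neither time. With times called by unadjusted p, 30 were transient, 124 delayed, 120 reversing, 18 growing and 0 at neither time, and with times called by a 1.5-fold estimate 92 were at neither time. Apart from the number of rows or genes tested and the minimum fold, which act by construction, the cause was not tested. Share higher was 69.4% as reported, 58.6% with the covariate and 16.7% against the minimum fold.

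Leaving out 1 array at a time gave 28 to 265 higher and 28 to 139 lower genes, 21 to 287 calls at 6 h and 182 to 781 at 24 h, with 2 to 66 transient, 43 to 281 delayed, 0 to 17 reversing, 0 to 10 growing and 6 to 56 at neither time; a group left with 1 array is then assumed to vary like the others.

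With the replicate number as a block 261 genes were higher and 101 lower. The numbers were not taken to pair the samples, since not every pair of groups had a correlation over 0.1: replicate deviations correlated at -0.33, -0.28 and -0.20 between basal 24 h and the other groups and at 0.24 to 0.41 among those 3. Crossed numbers in basal 24 h could give such signs, the labels do not settle it, and no crossed pairing was fitted. With 2 arrays per group from 1 pool of cells, small differences were not detectable, and levels near background are compressed.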
